A study of Mus musculus with 9 samples.

Results

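The genes described here encode the enzymes and a receptor of the main prostaglandin and leukotriene pathway: Pla2g4a, Ptgs1, Ptgs2, Ptges, Tbxas1, Hpgds, Ptger4, Alox5, Alox5ap and Ltc4s. They were taken by symbol from a list of eicosanoid genes and are 10 of the 42454 genes in the deposited table. All 10 passed a filter on low values (10 or more normalized counts in 3 or more libraries), as did 14404 genes of the table. RNA was sequenced from macrophages that were Ly6C low and MHC class II positive, sorted from the lamina propria of the colon of mice aged 6 weeks. Each of 3 genotypes, p47phox-/-, gp91phox-/- and their wild type control (WT), was represented by 3 libraries (9 in all), and no treatment was named. p47phox, encoded by Ncf1, is the cytosolic organiser of the phagocyte NADPH oxidase, and gp91phox, encoded by Cybb on the X chromosome, is its catalytic subunit. The labels restrict neither allele to a cell type. The strain, the sex of the mice, the source of the WT controls and whether a library is 1 mouse or a pool are details that the sources used here do not give. The p-values therefore describe the spread among these samples, and that spread may be technical.

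Eicosanoids are lipid signals made from arachidonic acid. Cytosolic phospholipase A2 releases this fatty acid from membranes. The cyclooxygenases then turn it into prostaglandin H2, which terminal synthases convert into prostaglandin E2, prostaglandin D2 or thromboxane. 5-lipoxygenase and its helper protein instead send arachidonic acid to the leukotrienes. In the gut wall, prostaglandin E2 is known for supporting the epithelium and for restraining macrophage activation through cAMP-coupled receptors, and leukotrienes are known for recruiting leukocytes.

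The libraries held 31141107 to 52797368 reads on genes. At similar depth, p47phox-/- replicates 2 and 3 had reads on 14323 and 14268 genes, while the other 7 libraries had reads on 15825 to 18760, so the values of the 10 genes are also given without them. Ncf1 had 8989.8 to 10815 normalized counts in WT, 2718 to 3733 in p47phox-/- and 12136 to 13617 in gp91phox-/-. Every one of the 1362 genes of the X chromosome was listed at 0 in all libraries, so Cybb could not be used to check the gp91phox-/- label. The macrophage markers (12 of 12 tested) summed to 534228 to 718700 normalized counts in WT, 673187 to 816745 in p47phox-/- and 691906 to 841167 in gp91phox-/-. Single markers differed by limma at an adjusted p under 0.05. Against WT, Cd163 was higher in p47phox-/- and Fcgr1 in gp91phox-/-. Cx3cr1 and Fcgr1 were higher and Cd68 lower in gp91phox-/- than in p47phox-/-. Cx3cr1 had 4060 to 5542 in WT, 598 to 5056 in p47phox-/- and 14745.5 to 24878 in gp91phox-/-. B and plasma cell markers summed to 19081 to 43289 in WT, 18520 to 25446 in p47phox-/- and 2004 to 3713 in gp91phox-/-, and 11 of 13 fell in gp91phox-/- against WT (limma, adjusted p under 0.05). In that comparison 7.05% of all genes tested were called in either direction. Conventional dendritic cell markers summed to 3617 to 6795 in WT, 4621 to 5935 in p47phox-/- and 1208 to 1860 in gp91phox-/-. The part of these cells in the results below was not tested.

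Between gp91phox-/- and WT, 3 of the 10 genes rose and none fell: Ptgs2, Pla2g4a and Ptger4. Calls come from limma on log2(normalized count + 1) at an adjusted p under 0.05, with adjustment over all 14404 genes tested, and 7.05% of those genes were called in this comparison (2.53% as higher). Between p47phox-/- and WT none of the 10 was called by limma, where 1.12% of all genes were (0.625% as higher). In that comparison 5 of the 10 had an unadjusted p under 0.05, all higher in p47phox-/-, where 7.57% of all genes were higher at that level. On the recovered reads edgeR called 0 of the 10 and DESeq2 called 1, Alox5, where they called 133 and 678 of all genes. The comparison of gp91phox-/- with p47phox-/- tests whether the knockouts' effects differ. In it Ptgs2 and Pla2g4a were higher in gp91phox-/-, and 9.93% of all genes were called (3.97% as higher). The median log2 fold change of the 10 genes was 0.35 in p47phox-/- against WT, 0.44 in gp91phox-/- against WT and 0.23 in gp91phox-/- against p47phox-/-, beside -0.02, 0.01 and 0.02 over all genes tested. Both knockouts were compared with the same WT libraries.

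**Figure D1:**
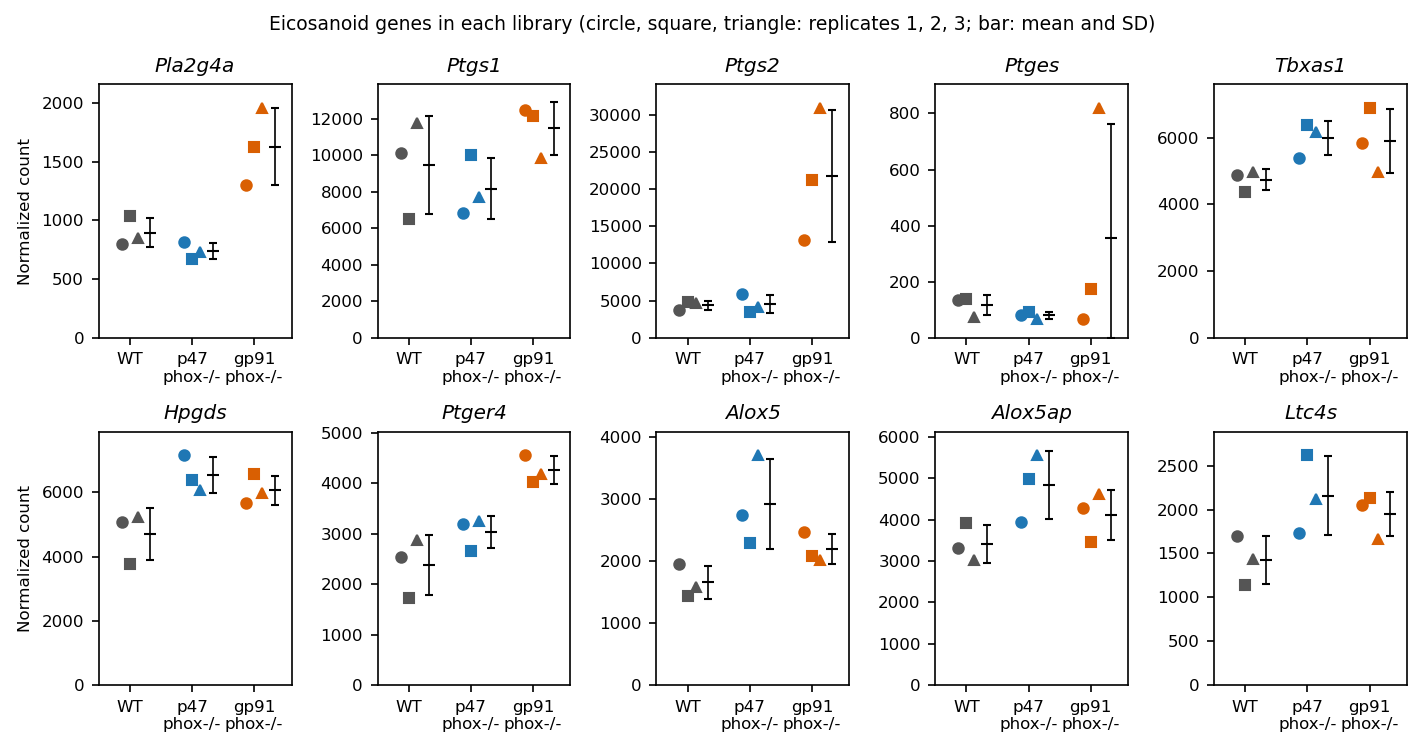
Normalized counts of the 10 genes in each of the 9 libraries. Symbols are replicates, the bar beside each group is its mean and SD over 3 libraries (cut at 0 for Ptges in gp91phox-/-). The 3 gp91phox-/- libraries lie above the other 6 for Ptgs2, Pla2g4a and Ptger4, and the high Ptges mean of gp91phox-/- comes from the single value of 821.

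The stretches before the start sites of the 3 genes that rose, and of Ptgs1, the sister gene of Ptgs2 that was not called, are shown so that their promoters can be compared. Each is the 250 bases upstream of the annotated start, written 5′ to 3′ on the strand of the gene, from RefSeq on GRCm38.p6, whose table matched 9 of the 10 genes. Ptgs2 starts at chr1:150100031 on the plus strand, with upstream bases chr1:150099781-150100030. Pla2g4a starts at chr1:149961290 on the minus strand, with upstream bases chr1:149961291-149961540. Ptger4 starts at chr15:5244187 on the minus strand, with upstream bases chr15:5244188-5244437. Ptgs1 starts at chr2:36230426 on the plus strand, with upstream bases chr2:36230176-36230425. Capitals mark matches to the motifs named in the next paragraph.
Ptgs2: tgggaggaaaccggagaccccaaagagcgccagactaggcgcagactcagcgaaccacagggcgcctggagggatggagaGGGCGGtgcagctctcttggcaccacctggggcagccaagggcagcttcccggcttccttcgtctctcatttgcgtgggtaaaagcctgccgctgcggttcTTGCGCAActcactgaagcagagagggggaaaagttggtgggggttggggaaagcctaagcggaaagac
Pla2g4a: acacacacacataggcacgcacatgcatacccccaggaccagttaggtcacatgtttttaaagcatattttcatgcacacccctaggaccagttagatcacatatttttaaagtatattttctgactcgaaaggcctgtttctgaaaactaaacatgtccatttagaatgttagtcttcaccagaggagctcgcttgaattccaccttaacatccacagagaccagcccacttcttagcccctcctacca
Ptger4: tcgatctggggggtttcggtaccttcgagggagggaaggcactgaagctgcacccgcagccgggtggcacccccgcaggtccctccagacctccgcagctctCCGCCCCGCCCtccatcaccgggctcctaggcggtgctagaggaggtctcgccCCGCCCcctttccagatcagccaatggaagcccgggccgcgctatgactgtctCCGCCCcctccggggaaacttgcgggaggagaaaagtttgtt
Ptgs1: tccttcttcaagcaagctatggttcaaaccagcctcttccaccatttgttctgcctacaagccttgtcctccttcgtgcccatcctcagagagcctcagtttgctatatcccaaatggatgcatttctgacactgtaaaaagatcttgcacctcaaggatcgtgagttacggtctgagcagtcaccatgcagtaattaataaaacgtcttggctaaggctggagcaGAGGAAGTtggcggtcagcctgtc

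Motifs were searched on both strands in the window from 250 bases before to 50 bases after the start, in 32851 RefSeq promoters. The E-box CACGTG was in 7.15% of all promoters, the core TGACG of the cAMP response element in 20.8%, the C/EBP motif TTGCNNAA in 10.8%, the AP-1 motif TGANTCA in 7.81%, TATAAA in 13.6%, the PU.1 motif GAGGAAGT in 3.2%, the GC box GGGCGG in 35.7% and the NF-kB motif in 8.46%. Ptgs2 held the C/EBP motif at -69 to -62 and a GC box at -170 to -165, counted from the start. Just past the annotated start, the core of the cAMP response element (positions 14 to 18) overlapped an E-box (positions 17 to 22). These positions hold for the RefSeq start and would shift if transcription began elsewhere, which was not measured. The overlap is shown here in capitals within chr1:150100034-150100062.
Ptgs2, positions 4 to 32: gtcaccactaCGTCACGTGgagtccgctt
The upstream window of Ptger4 held 4 GC boxes, 2 of which share a base, and that of Ptgs1 held the PU.1 motif at -24 to -17. None of these letters was found in the window of the first start of Pla2g4a. A match is a run of letters and was not measured as a bound site.

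Pla2g4a encodes cytosolic phospholipase A2, which supplies arachidonic acid to both branches of the pathway. Its normalized counts were 800, 1039 and 849 in WT replicates 1, 2 and 3, 813, 673 and 733 in p47phox-/-, and 1297, 1627 and 1959.9 in gp91phox-/-. Every gp91phox-/- library was above all WT and p47phox-/- libraries, while WT and p47phox-/- overlapped. Pla2g4a rose by 0.85 on the log2 scale in gp91phox-/- against WT (SE 0.18, 1.80-fold, limma adjusted p = 0.0122). It was higher by 1.12 in gp91phox-/- than in p47phox-/- (SE 0.18, adjusted p = 0.00207). The value for p47phox-/- against WT was -0.27 (95% interval -0.66 to 0.11, adjusted p = 0.487). The call against WT was lost without WT replicate 1 (adjusted p = 0.0579), WT replicate 3 (0.0515), gp91phox-/- replicate 2 (0.0539) or replicate 3 (0.0633), with log2 fold changes of 0.71 to 0.84. The call against p47phox-/- was lost without p47phox-/- replicates 2 and 3 together (0.98, adjusted p = 0.0709).

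Ptgs2 encodes cyclooxygenase-2, the inducible enzyme, and had the greatest fold change of the 10 genes. It had 3699.9, 4751 and 4687 normalized counts in WT, 5826, 3455 and 4202 in p47phox-/-, and 13127, 21185 and 30961 in gp91phox-/-. The lowest gp91phox-/- library was above the highest of the other 6, and the gp91phox-/- libraries differed among themselves more than those of WT, with a coefficient of variation of 41.0% against 13.5%. Ptgs2 rose by 2.24 on the log2 scale in gp91phox-/- against WT (SE 0.27, 4.71-fold, 95% interval 3.13 to 7.09, limma adjusted p = 0.000335). In p47phox-/- against WT its value was 0.01 (95% interval -0.58 to 0.60, adjusted p = 0.989), so changes of up to about 1.52-fold in p47phox-/- lie within the interval. The difference between the knockouts was 2.22 (SE 0.27, adjusted p = 0.000372). Without p47phox-/- replicates 2 and 3 it was 1.81 (adjusted p = 0.0372), and Ptgs2 was called in all 22 alternatives of both comparisons. In sorted bulk samples, a change in the number of cells that express a gene and a change in RNA per cell cannot be told apart.

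Ptgs1 encodes cyclooxygenase-1, the constitutive enzyme. Its normalized counts were 10113, 6526 and 11730 in WT, 6825, 10005 and 7679 in p47phox-/-, and 12471, 12124 and 9817 in gp91phox-/-. The 3 groups overlapped, and the WT libraries alone spanned nearly the whole range. The log2 fold change was -0.19 in p47phox-/- against WT (95% interval -0.65 to 0.27, limma adjusted p = 0.713) and 0.31 in gp91phox-/- (95% interval -0.15 to 0.77, adjusted p = 0.442). Between gp91phox-/- and p47phox-/- it was 0.50 (95% interval 0.04 to 0.96, adjusted p = 0.157). Per kilobase of transcript, the ratio of Ptgs2 to Ptgs1 was 0.236, 0.469 and 0.257 in WT, 0.550, 0.222 and 0.352 in p47phox-/-, and 0.678, 1.13 and 2.03 in gp91phox-/-. Thus Ptgs2 exceeded Ptgs1 in 2 of the 9 libraries, gp91phox-/- replicates 2 and 3, and the ratio in each gp91phox-/- library was above that in the other 6.

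**Figure D2:**
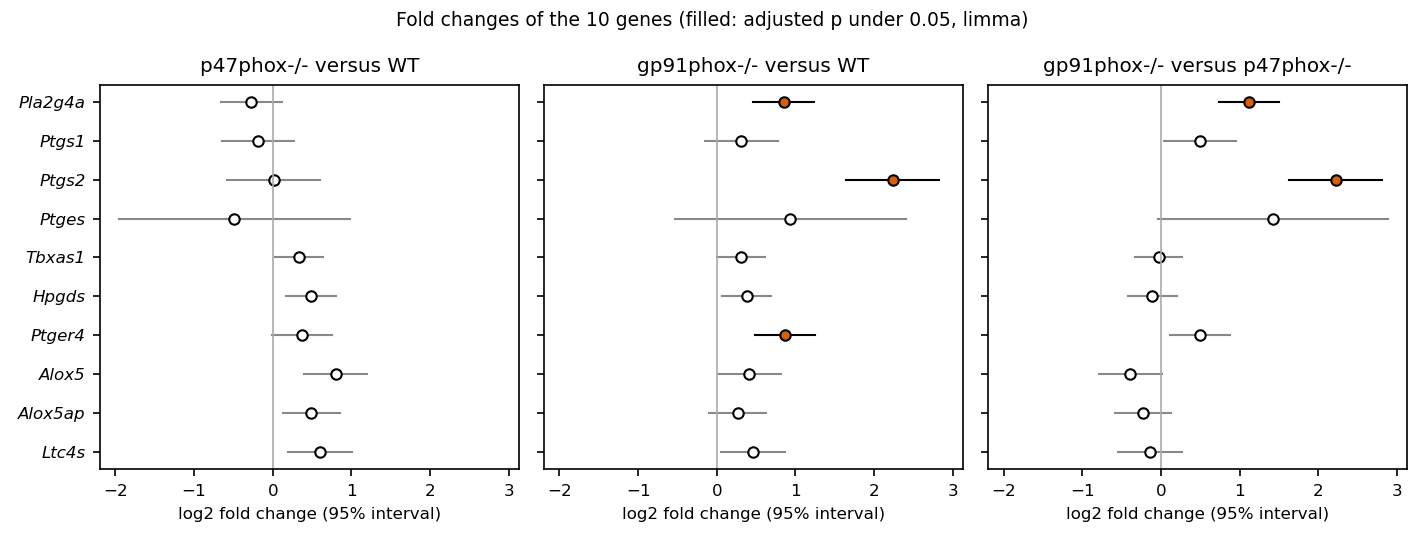
Log2 fold changes of the 10 genes in the 3 comparisons with their 95% intervals (limma). Filled points are genes with an adjusted p under 0.05: Ptgs2, Pla2g4a and Ptger4 in gp91phox-/- against WT, Ptgs2 and Pla2g4a in gp91phox-/- against p47phox-/-, and none in p47phox-/- against WT.

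Ptges encodes the inducible prostaglandin E synthase that acts together with cyclooxygenase-2. It was the lowest of the 10 genes, with 133, 139.5 and 75.0 normalized counts in WT, 80.6, 93.2 and 66.7 in p47phox-/-, and 68.2, 175 and 821 in gp91phox-/-. In gp91phox-/-, replicate 1 lay below all 3 WT libraries and replicate 3 was several times above every other library. The log2 fold change in gp91phox-/- against WT was 0.93 (SE 0.67, limma adjusted p = 0.477) and became -0.031 without gp91phox-/- replicate 3. Against p47phox-/- it was 1.42 (SE 0.67, adjusted p = 0.206), and 0.46 without that replicate. This difference was called without gp91phox-/- replicate 1 (2.24, adjusted p = 0.0374) and with DESeq2 on the recovered reads (2.18, adjusted p = 0.00682). The other prostaglandin E synthases tested, Ptges2 (162 to 312 normalized counts over the 9 libraries) and Ptges3 (2931 to 4182), were not called in any comparison.

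Tbxas1 encodes thromboxane A synthase. It had 4881, 4375 and 4973 normalized counts in WT, 5399, 6366 and 6169.7 in p47phox-/-, and 5823, 6901 and 4969 in gp91phox-/-. All 3 p47phox-/- libraries were above WT, while gp91phox-/- replicate 3 fell within the WT range. The log2 fold change was 0.33 in p47phox-/- against WT (SE 0.14, limma adjusted p = 0.292) and 0.30 in gp91phox-/- (SE 0.14, adjusted p = 0.230). Hpgds encodes the hematopoietic prostaglandin D synthase, which macrophages and mast cells are known to carry. Its normalized counts were 5078, 3785 and 5249 in WT, 7175, 6386 and 6078 in p47phox-/-, and 5679.6, 6569.9 and 5978 in gp91phox-/-. Every knockout library was above every WT library. Neither difference from WT was called, with log2 fold changes of 0.49 in p47phox-/- (SE 0.14, adjusted p = 0.132) and 0.38 in gp91phox-/- (SE 0.14, adjusted p = 0.144). Between the knockouts the values were -0.03 for Tbxas1 (95% interval -0.33 to 0.27) and -0.11 for Hpgds (-0.42 to 0.21). The mast cell markers Fcer1a and Ms4a2 were listed at 0 in all 9 libraries, and the 12 mast cell markers together summed to 535 to 839 normalized counts in WT, 343 to 640 in p47phox-/- and 413 to 1036 in gp91phox-/-, most of it Kit and Hdc. The mast cell proteases Mcpt1, Mcpt2, Mcpt4 and Tpsb2 were listed at 0 in WT and in p47phox-/- replicate 2. Mcpt1 had 46.2 and 31.4 and Mcpt4 16.8 and 39.1 in p47phox-/- replicates 1 and 3, and Mcpt2 had 26.7 and Tpsb2 27.6 in replicate 3. The proteases Cpa3 and Cma1 were also listed at 0 in WT. Cpa3 had 0.839, 9.67 and 0 in p47phox-/- replicates 1, 2 and 3, and 0, 0 and 1.79 in gp91phox-/-. Cma1 had 8.39, 0 and 0 in p47phox-/-, and 2.73, 3.62 and 2.68 in gp91phox-/-. Their part in the Hpgds values was not tested.

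Ptger4 encodes EP4, a receptor for prostaglandin E2 that raises cAMP. It had 2534, 1729.96 and 2878 normalized counts in WT, 3198, 2660.4 and 3249 in p47phox-/-, and 4569, 4036 and 4191 in gp91phox-/-. The gp91phox-/- libraries were the 3 highest and varied least, with a coefficient of variation of 6.43%, while p47phox-/- replicate 2 fell within the WT range. Ptger4 rose by 0.87 on the log2 scale in gp91phox-/- against WT (SE 0.18, 1.83-fold, limma adjusted p = 0.0101). The value for p47phox-/- against WT was 0.38 (95% interval -0.005 to 0.76, adjusted p = 0.337). The difference between the knockouts, 0.49 (SE 0.18, adjusted p = 0.0966), was not called, although the libraries did not overlap. It was 0.41 without p47phox-/- replicates 2 and 3 (adjusted p = 0.436) and was called by DESeq2 on the recovered reads. Exons of Ptger4 overlap those of Ttc33 on the opposite strand, which had 271 to 452 normalized counts. Ptgs1, Tbxas1, Alox5ap and Ltc4s also share exon bases with opposite-strand genes (Gm43621, Gm42962, Gm19719 and Gm26542) that the deposited table does not list. The sources used here do not say whether the counting used strand.

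The leukotriene branch is represented by Alox5 (5-lipoxygenase), Alox5ap (FLAP, the membrane protein that presents arachidonic acid to it) and Ltc4s (leukotriene C4 synthase). Alox5 had 1946, 1432 and 1587 normalized counts in WT, 2736, 2294 and 3715 in p47phox-/-, and 2472, 2089 and 2019.9 in gp91phox-/-. All 6 knockout libraries were above the WT libraries, with the highest value in p47phox-/- replicate 3. Its log2 fold change in p47phox-/- against WT was 0.80 (SE 0.18, 1.74-fold), just outside the threshold (limma adjusted p = 0.0610). It passed with quantile normalization (adjusted p = 0.0418), with DESeq2 (0.00456) and without p47phox-/- replicate 2 (0.0258), and the adjusted p over all 22 alternatives ran up to 0.287, without p47phox-/- replicates 2 and 3. Its value for gp91phox-/- against WT was 0.41 (SE 0.18, adjusted p = 0.213).

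Alox5ap had 3315, 3926 and 3028 normalized counts in WT, 3954, 4981 and 5571 in p47phox-/-, and 4276, 3449 and 4624 in gp91phox-/-. Ltc4s had 1695, 1142 and 1435 in WT, 1732, 2624 and 2123 in p47phox-/-, and 2051, 2134 and 1668 in gp91phox-/-. For both genes the p47phox-/- libraries lay above WT without overlap, narrowly so in replicate 1, and 1 gp91phox-/- library lay within the WT range. The log2 fold changes in p47phox-/- against WT were 0.49 for Alox5ap (SE 0.16, limma adjusted p = 0.178) and 0.60 for Ltc4s (SE 0.19, adjusted p = 0.154). Without p47phox-/- replicates 2 and 3 they were 0.22 and 0.30. Against WT the gp91phox-/- values were 0.26 (adjusted p = 0.398) and 0.46 (adjusted p = 0.170). None of the 3 leukotriene genes differed between the knockouts by the test, with log2 values of -0.39 to -0.13.

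Counted over all members, 5 of 10 genes had p47phox-/- libraries that were all above WT (Tbxas1, Hpgds, Alox5, Alox5ap and Ltc4s), where 9.25% of all genes tested did. For gp91phox-/- against WT 5 of 10 did (Ptgs2, Hpgds, Pla2g4a, Alox5 and Ptger4), where 15.1% of all genes did. For gp91phox-/- against p47phox-/- 3 of 10 did (Ptgs2, Pla2g4a and Ptger4), beside 13.6%. No member was lower without overlap in any comparison. Without p47phox-/- replicates 2 and 3, which leaves 1 library of that genotype and assumes that it varied like the other groups, the limma adjusted p of the 10 genes in p47phox-/- against WT ran from 0.287 to 0.941. Their log2 fold changes were then 0.42 for Ptgs2, -0.43 for Ptgs1, -0.47 for Ptges, 0.19 for Tbxas1, 0.62 for Hpgds, -0.13 for Pla2g4a, 0.74 for Alox5, 0.22 for Alox5ap, 0.30 for Ltc4s and 0.46 for Ptger4. In gp91phox-/- against p47phox-/-, Ptgs2 alone was then called (1.81, adjusted p = 0.0372), with 0.74 for Ptgs1, 1.40 for Ptges, 0.11 for Tbxas1, -0.24 for Hpgds, -0.32 for Alox5, 0.05 for Alox5ap and 0.16 for Ltc4s, beside the values given above for Pla2g4a and Ptger4. Hpgds and Alox5 stood above WT in both knockouts. Fibroblast and smooth muscle markers also moved, with sums of 7005 to 9196 in WT, 11953 to 18591 in p47phox-/- and 10062 to 12121 in gp91phox-/-, and their part in these counts was not tested.

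**Figure D3:**
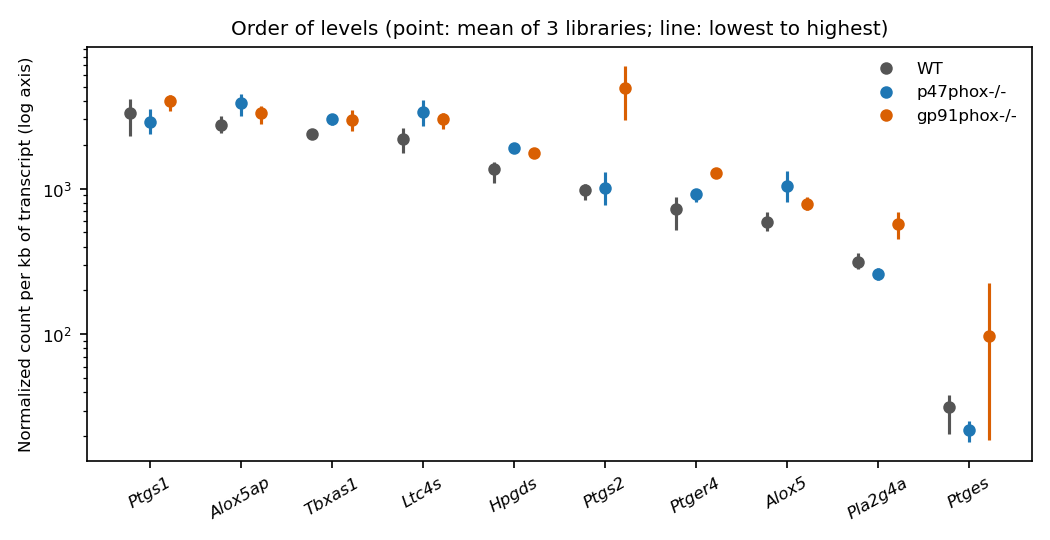
Levels of the 10 genes as normalized counts per kilobase of the longest protein-coding transcript, on a log axis, ordered by the WT mean. Points are means of 3 libraries and lines run from the lowest to the highest library. Ptgs2 is sixth in WT and first in gp91phox-/-, and Ptges is last in each genotype.

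Levels were compared between genes as normalized counts per kilobase of the longest protein-coding transcript. In WT the order began with Ptgs1 (3298 ± 929, SD, n = 3), Alox5ap (2736 ± 367), Tbxas1 (2383 ± 162) and Ltc4s (2194 ± 427), and the ranges of neighbours among these 4 overlapped. Hpgds (1353 ± 230) and Ptgs2 (983 ± 132) followed, each below the gene before it without overlap. Ptger4 (719 ± 178) overlapped both Ptgs2 and Alox5 (587 ± 93.4), while Pla2g4a (314 ± 44.2) and Ptges (31.8 ± 9.77) were each below all of the preceding. In p47phox-/- the order began with Alox5ap (3865 ± 654), Ltc4s (3328 ± 689), Tbxas1 (3004 ± 257) and Ptgs1 (2849 ± 574), again overlapping between neighbours. In gp91phox-/- Ptgs2 stood first (4886 ± 2006), with a range of 2948 to 6953 that overlapped those of Ptgs1 (4001 ± 503), Alox5ap (up to 3696), Tbxas1 (up to 3468) and Ltc4s (up to 3288), and Pla2g4a remained ninth (570.0 ± 116). Counted over all annotated exons instead, a choice made after seeing the data, Tbxas1 in WT moved to the sixth place (522 ± 35.4) and Ptgs2 to the fourth (956 ± 129), while Ptgs2 stayed first in gp91phox-/-.

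Over the 9 libraries, Ptgs2 and Pla2g4a moved together. The correlation of their log2 values was 0.96, and 0.92 after the mean of each genotype was removed, so the gp91phox-/- replicates had the same order for both genes. Ptgs2 with Ptges gave 0.69, and 0.72 within genotypes. Ptgs2 with Ptger4 gave 0.74 over all libraries but -0.07 within genotypes. Tbxas1 and Ltc4s gave 0.90, and 0.78 within genotypes, although they belong to different branches. These values describe 9 libraries that share genotype groups and carry no test.

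**Figure D4:**
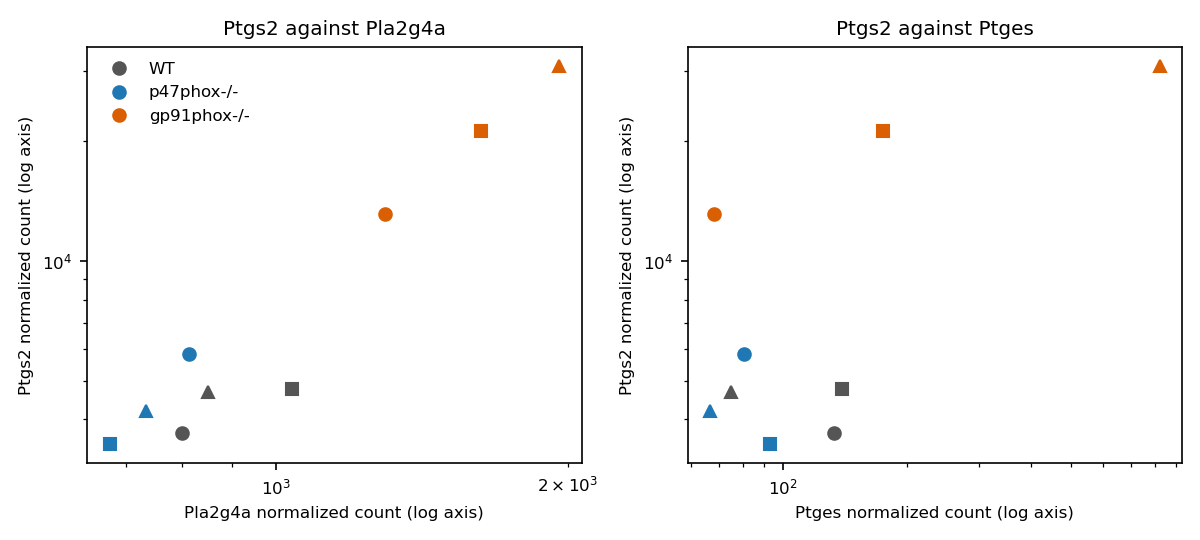
Normalized counts of Ptgs2 against those of Pla2g4a (left) and Ptges (right) in the 9 libraries, on log axes; symbols are replicates 1 (circle), 2 (square) and 3 (triangle). The gp91phox-/- libraries rise in the same order for Ptgs2 and Pla2g4a, and only gp91phox-/- replicate 3 is far to the right for Ptges.

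Ptgs2 and Pla2g4a are also neighbours in the genome. On GRCm38 Pla2g4a lies at chr1:149829618-149961290 on the minus strand and Ptgs2 at chr1:150100031-150108234 on the plus strand, with their starts facing each other 138.741 kb apart. The annotation places Gm19136 and Ptgs2os between them and no protein-coding gene. Of the 15 genes of the table within 1 Mb of the Ptgs2 start, 6 were tested. The 2 called in gp91phox-/- against WT were Pla2g4a and Ptgs2 itself, on which the window was centred because it was called. Over all genes tested, 7.05% were called in this comparison. On the far side of Ptgs2, Odr4 had a log2 fold change of 0.21 (limma adjusted p = 0.535) and Tpr one of 0.04 (adjusted p = 0.894). Prg4, next to Tpr, had 1.85 against WT (adjusted p = 0.504) and 2.87 against p47phox-/- (adjusted p = 0.219), neither called. The noncoding RNA gene Ptgs2os2 had 19.9, 33.8 and 46.6 normalized counts in WT, 52.0, 29.0 and 0 in p47phox-/-, and 73.7, 126 and 161 in gp91phox-/-. Its gp91phox-/- libraries were the 3 highest, but the log2 fold change of 1.82 against WT was not called (adjusted p = 0.404). Alox5ap lies on chromosome 5, as does Ncf1, at a distance of 15.0 Mb.

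Likeness of profile over the 9 libraries was taken among 10661 genes with a mean of at least 50 normalized counts. The genes nearest to Ptgs2 included Rab32 (Pearson r of 0.98), Msr1 (0.98), Capza2 (0.97) and Parp9 (0.97). After the mean of each genotype was removed, these values were 0.86, 0.78, 0.81 and 0.74. Msr1, a macrophage scavenger receptor, had 7118 to 7778 normalized counts in WT, 6437 to 8126 in p47phox-/- and 12084 to 14212 in gp91phox-/-. Nearest to Pla2g4a were Olr1 (0.97), Ptp4a1 (0.97), LOC115487417 (0.97), Samsn1 (0.97) and Cers6 (0.97), with 0.93, 0.78, 0.86, 0.76 and 0.96 within genotypes. Olr1, a receptor for oxidized low-density lipoprotein, had 261 to 473 normalized counts in WT, 263 to 289.6 in p47phox-/- and 549 to 1287 in gp91phox-/-. Nearest to Ptger4 were Klhl9 (0.96), Pon3 (0.95), Cep290 (0.95), Tlr2 (0.95) and B4galt6 (0.95), with 0.94, 0.84, 0.86, 0.82 and 0.78 within genotypes. Tlr2, a receptor for bacterial lipoproteins, had 6993 to 9850.2 in WT, 10496 to 14126 in p47phox-/- and 16185 to 18249 in gp91phox-/-. No gene named here was on more than 1 of these 3 lists.

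The rest of the pathway was read from 7 lists of 58 other eicosanoid genes, of which 41 were tested. In p47phox-/- against WT 1 was higher and 1 lower, in gp91phox-/- against WT 2 were higher and 1 lower, and in gp91phox-/- against p47phox-/- 2 were higher and 3 lower. Over all genes tested, 1.12%, 7.05% and 9.93% were called in these comparisons. The median log2 fold changes of the 41 genes were -0.01, -0.05 and -0.01, near those of all genes tested (-0.02, 0.01 and 0.02). Acsl4 and Cysltr1, on the X chromosome, and Oxgr1 were listed at 0, and Fam213b was not analysed here. The receptors Ptger3, Ptgdr, Ptgdr2, Ptgfr and Ltb4r2 and the synthase Ptgds were among the genes below the filter on low values.

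Among the genes that transport or break down prostaglandins, 2 of 5 rose in gp91phox-/- against WT, where 2.53% of all genes tested did. Hpgd, the enzyme that inactivates prostaglandin E2, had 1193, 1246 and 1166 normalized counts in WT, 2089.9, 1894 and 1987 in p47phox-/-, and 2558, 1984 and 1645 in gp91phox-/-. All knockout libraries were above WT. Hpgd rose by 0.76 on the log2 scale in gp91phox-/- against WT (SE 0.16, limma adjusted p = 0.0120) and by 0.73 in p47phox-/- (SE 0.16, adjusted p = 0.0496). Without the trend the gp91phox-/- value had an adjusted p of 0.0558. The p47phox-/- call was lost in 15 of 22 alternatives, among them without p47phox-/- replicates 2 and 3 (adjusted p = 0.300). Ptgr2, a reductase of the next step, had 714 to 809 normalized counts in WT and 1153 to 1363 in gp91phox-/- (log2 fold change 0.67, SE 0.16, adjusted p = 0.0270). That call was lost in 7 of 22 alternatives, including without any 1 of the WT or gp91phox-/- libraries, with adjusted p up to 0.0981.

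Of the 4 other prostanoid receptors tested, 1 was called, in gp91phox-/- against WT, where 7.05% of all genes tested were. Ptgir, the prostacyclin receptor, which like EP4 raises cAMP, had 246, 323 and 357 normalized counts in WT, 188, 181 and 267 in p47phox-/-, and 106, 100.2 and 158 in gp91phox-/-. It fell by 1.35 on the log2 scale in gp91phox-/- against WT (SE 0.27, limma adjusted p = 0.0109), the opposite direction to Ptger4. The call was lost without WT replicate 3 (adjusted p = 0.0543) or gp91phox-/- replicate 2 (0.0589). Ptger2, the other cAMP-raising prostaglandin E2 receptor, had 72.4 to 182 normalized counts over the 9 libraries and was not called.

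Of the 11 other phospholipases and arachidonate-handling genes tested, Pla2g7, which encodes the secreted platelet-activating factor acetylhydrolase, had 22296 to 26269 normalized counts in WT, 13347 to 17884 in p47phox-/- and 28491 to 29672 in gp91phox-/-. The p47phox-/- libraries were the 3 lowest and the gp91phox-/- libraries the 3 highest. Pla2g7 was higher in gp91phox-/- than in p47phox-/- by 0.94 on the log2 scale (SE 0.14, limma adjusted p = 0.00135), a call kept in all 22 alternatives. It fell by 0.70 in p47phox-/- against WT (SE 0.14, adjusted p = 0.0344), a call lost in 12 of 22 alternatives. Pla2g2d, a secreted phospholipase (-1.40, adjusted p = 0.0233), and Pnpla2, a triglyceride lipase (-0.72, adjusted p = 0.00818), were lower in gp91phox-/- than in p47phox-/-. Both calls were lost without p47phox-/- replicates 2 and 3 (adjusted p = 0.0835 and 0.209).

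None of the 9 other leukotriene enzymes tested, such as Lta4h, the leukotriene A4 hydrolase (1381 to 1995 normalized counts over the 9 libraries), nor the receptors Ltb4r1 and Cysltr2 was called in any comparison. Among the 5 other lipoxygenases and epoxide hydrolases tested, Ephx1, the microsomal epoxide hydrolase, had 1401 to 2267 normalized counts in p47phox-/- and 488 to 759.8 in gp91phox-/- (log2 difference -1.50, SE 0.22, limma adjusted p = 0.00122, and 0.0666 without p47phox-/- replicates 2 and 3). Ephx2, the soluble hydrolase, had 4.20, 0 and 0 normalized counts in p47phox-/- and 21.5 to 28.2 in gp91phox-/- (adjusted p = 0.0238, and 0.193 without p47phox-/- replicates 2 and 3). Alox15 had at most 34.3 normalized counts in any library.

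**Figure D5:**
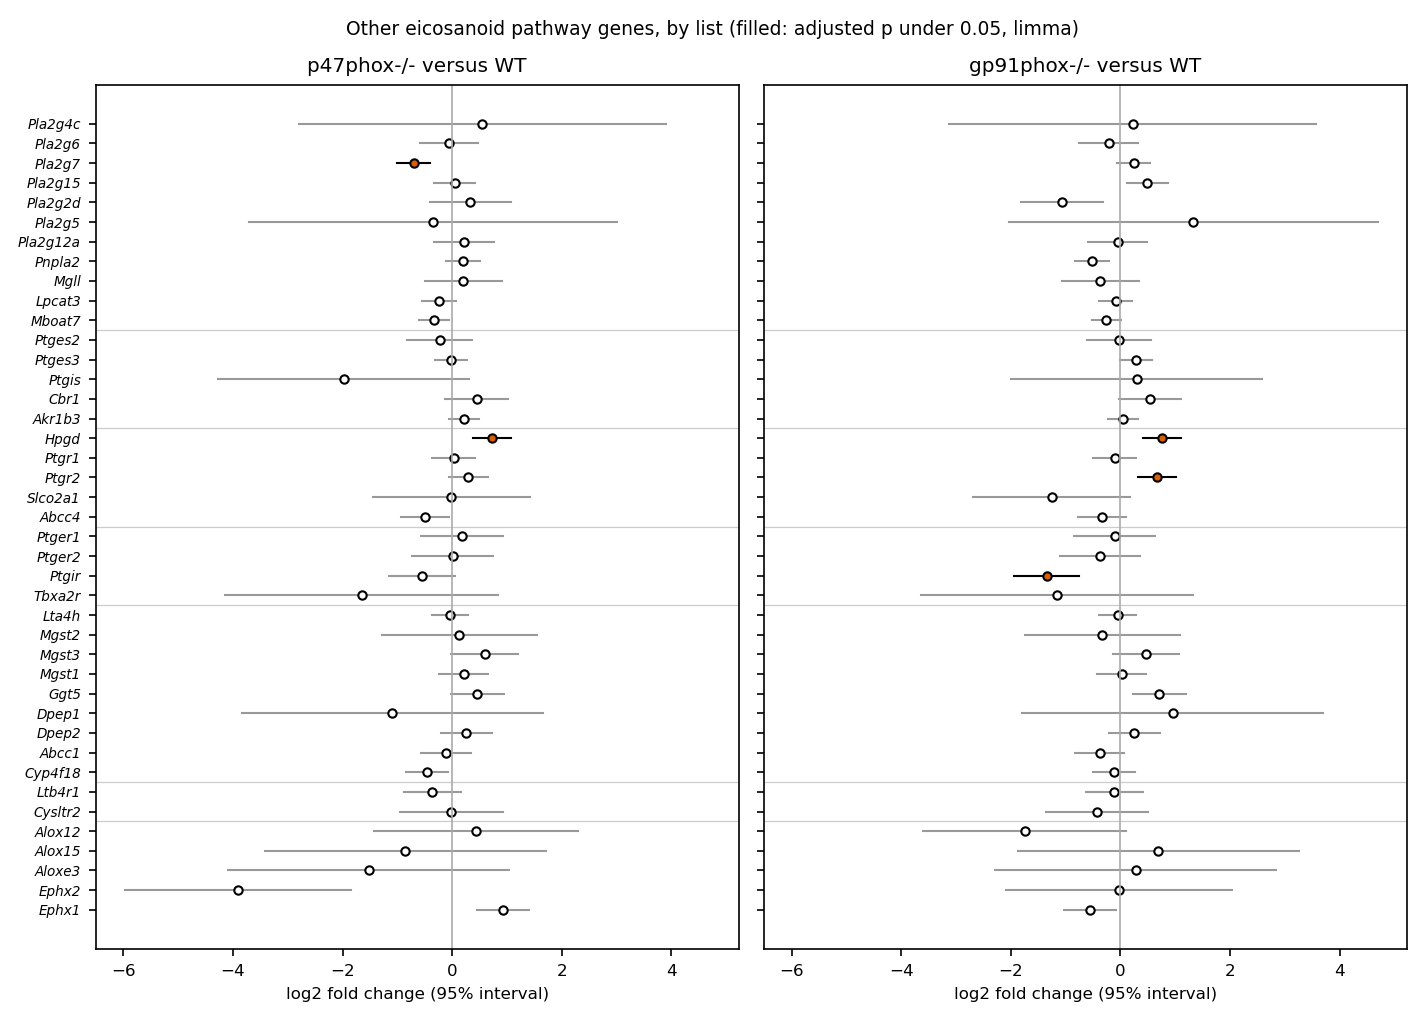
Log2 fold changes of the 41 tested genes of the 7 other eicosanoid lists against WT, with 95% intervals (limma); grey lines separate the lists and filled points have an adjusted p under 0.05. The filled points are Pla2g7 and Hpgd in p47phox-/- (left) and Hpgd, Ptgr2 and Ptgir in gp91phox-/- (right).

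A list of 10 cAMP-responsive genes was read because EP4 signals through cAMP. Against WT, 1 of the 10 rose and 2 fell in gp91phox-/-, in gp91phox-/- against p47phox-/- 4 were higher and none lower, and in p47phox-/- against WT none was called. For gp91phox-/- against WT, 7.05% of all genes tested were called (2.53% as higher), and against p47phox-/- 9.93% (3.97% as higher). Areg, the epidermal growth factor family ligand amphiregulin, had 259 to 275 normalized counts in WT, 206 to 324 in p47phox-/- and 386 to 854 in gp91phox-/-. It rose by 1.20 on the log2 scale in gp91phox-/- against WT (SE 0.28, limma adjusted p = 0.0242, up to 0.113 with 1 library left out). Crem, a cAMP-responsive transcription factor, had 4117 to 5693 in WT, 2668 to 4081 in p47phox-/- and 6326 to 8729.9 in gp91phox-/-. Crem was higher by 1.14 in gp91phox-/- than in p47phox-/- (SE 0.19, adjusted p = 0.00271, called in all 22 alternatives), and its value against WT was 0.53 (adjusted p = 0.116). Nr4a3, a nuclear receptor, was higher in gp91phox-/- than in p47phox-/- by 0.99 (SE 0.17, adjusted p = 0.00336, and 0.114 without p47phox-/- replicates 2 and 3). Pde4d, which breaks down cAMP, fell by 0.77 in gp91phox-/- against WT (adjusted p = 0.0459), a call lost in 10 of 22 alternatives.

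Ptgs2 is itself an immediate-early gene, so the levels of 17 immediate-early and dissociation stress genes were set beside it. Against WT, 5 of the 17 rose in gp91phox-/- and none fell, among them Btg2 (log2 fold change 1.36, SE 0.15, limma adjusted p = 0.000161) and Egr2 (1.08, SE 0.17, adjusted p = 0.00187). Fosb rose by 0.71 (adjusted p = 0.0473), a call lost in 13 of 22 alternatives. Against p47phox-/- 3 were higher in gp91phox-/- and Fosl1 was lower (-1.27, adjusted p = 0.0232, and 0.249 without p47phox-/- replicates 2 and 3). None was called in p47phox-/- against WT. Of all genes tested, 2.53% were called higher in gp91phox-/- against WT and 3.97% against p47phox-/-. The summed level of the list was 484692, 306170 and 479744 normalized counts in WT, 343819, 457309 and 499358 in p47phox-/-, and 762849, 523780 and 448775 in gp91phox-/-. In gp91phox-/- the sum was highest in replicate 1 and lowest in replicate 3, while Ptgs2 was lowest in replicate 1 and highest in replicate 3. The heat shock genes Hspa1a and Hspa1b made up 344371 of the sum in gp91phox-/- replicate 1, 150056 in replicate 2 and 104973 in replicate 3. Without them, a choice made after seeing the data, the other 15 genes summed to 236950 to 295465 in WT, 269340 to 332825 in p47phox-/-, and 418478, 373724 and 343801 in gp91phox-/-, so that every gp91phox-/- library was above the other 6. Single genes of the list, named here after their values were seen, differed in their order within gp91phox-/-. Btg2 had 22301, 18177 and 16577 normalized counts in replicates 1, 2 and 3, the reverse of the Ptgs2 order. Ier3 had 10650.3, 11939 and 14112, and Zfp36 51434, 54514 and 55099, the same order as Ptgs2. The part of these genes in the Ptgs2 result was not tested.

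Other cells that can carry eicosanoid genes were looked for by their markers. Neutrophil markers Camp and Ngp were listed at 0 in all libraries. The 11 neutrophil markers summed to 4133 to 6050.0 normalized counts in WT, 4038 to 4895 in p47phox-/- and 5551 to 5983 in gp91phox-/-, nearly all of it Csf3r. Ly6g was listed at 0 in all WT and p47phox-/- libraries. It had 10.01, 7.84 and 5.37 in gp91phox-/- replicates 1, 2 and 3. S100a8 and S100a9 were highest in gp91phox-/- replicate 3 (31.3 and 10.7). Retnlg and Ltf were highest in p47phox-/- replicate 3 (29.5 and 40.01), and Cxcr2 and Mpo in WT replicate 3 (13.7 and 8.23). Eosinophil markers summed to 137 to 179 in WT, 152 to 201 in p47phox-/- and 109 to 115 in gp91phox-/-. Epx was at 0 in all libraries. Il5ra fell (limma adjusted p = 0.000781) and was at 0 in the 3 gp91phox-/- libraries. Siglecf went the other way and was not called, with 38.2 to 83.2 in WT, 62.1 to 85.3 in p47phox-/- and 85.1 to 90.3 in gp91phox-/-. Of the 4 eosinophil markers tested, 1 had a log2 fold change above 0 in gp91phox-/- against WT. Tuft cell markers summed to 58.0 to 133 in WT, 87.9 to 168 in p47phox-/- and 45.5 to 64.6 in gp91phox-/-, with Il25 at 0. The platelet and megakaryocyte list summed to 6381 to 8830.1 in WT, 12272 to 16239 in p47phox-/- and 9328 to 11713 in gp91phox-/-, nearly all of it Pf4, a platelet chemokine gene. Pf4 rose by 0.91 on the log2 scale in p47phox-/- against WT (limma adjusted p = 0.0188), while the values of Ppbp (-0.38, adjusted p = 0.468) and Itga2b (0.03, adjusted p = 0.989) were not called, and Gp9, Gp1ba and Gp1bb had at most 19.3 normalized counts. Endothelial markers summed to 2447 to 5249 in WT, 1185 to 2055 in p47phox-/- and 1896 to 2423 in gp91phox-/-, and Pecam1 fell by 1.32 in p47phox-/- against WT (adjusted p = 0.0470). T and innate lymphoid cell markers summed to 3056 to 3456 in WT, 3349 to 3709 in p47phox-/- and 1662 to 2727 in gp91phox-/-. Monocyte markers summed to 2917 to 6159 in WT, 2817 to 3771 in p47phox-/- and 4821 to 7589 in gp91phox-/-. Among them Ccr2 was higher in gp91phox-/- than in p47phox-/- by 1.30 (adjusted p = 0.00890) and was not called against WT (0.88, adjusted p = 0.0689). Epithelial markers summed to 2079 to 4836 in WT, 1127 to 2589 in p47phox-/- and 2663 to 5346 in gp91phox-/-. The part of these cells in the values of the 10 genes was not tested.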

How the data were processed

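RNA of sorted colon macrophages was sequenced as paired-end libraries. Per the submitters' processing notes and the labels' protocols, bcl2fastq 2.19, Cutadapt and STAR 2.5.2b (mm10) were used, featureCounts assigned reads to genes, and DESeq2 is named as a tool. The values the authors deposited are normalized counts (unit: signal), reads divided by 1 size factor per library. The strand setting and annotation of the counting are not given in the sources used here. From these, reads could be recovered as whole numbers for 100% of values (tolerance 0.01), with size factors of 1.05 to 1.66 and 31141107 to 52797368 reads per library.

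Values were tested as log2(normalized count + 1) with limma 3.58.1 (R 4.3.3) in a single model of all 9 libraries, using a mean-variance trend and Benjamini-Hochberg adjustment over the 14404 genes that reached 10 normalized counts in 3 or more libraries. Fold changes are on that scale. The steps were tested on simulated data. Alternatives (22 per comparison) were another pseudocount, filter or scaling, a fit of just the groups compared, a replicate block, no trend, array weights, count tests on the recovered reads (edgeR 4.0.16, DESeq2 1.42.0), each library left out, and p47phox-/- replicates 2 and 3 left out together. The members and lists were chosen with earlier results of these data known. All 10 members are named, up to 4 called genes per other list, and for each called member the 5 genes with the most similar profile, leaving out immunoglobulin and T cell receptor segments and unnamed gene models. One result under this rule is not reported here. The comparison of transcript lengths was added after seeing the data. Gene positions are from GENCODE and RefSeq on GRCm38, promoters from RefSeq.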

Additional observations from a re-analysis of the deposited data

Results flagged for a closer look

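The effects of the knockouts differed by the test for 2 of the 10 genes. For Ptgs2 the log2 fold change against WT was 2.24 in gp91phox-/- and 0.01 in p47phox-/-, a difference of 2.22 (limma adjusted p = 0.000372), with 3 of 3 gp91phox-/- libraries above all p47phox-/- libraries. For Pla2g4a it was 0.85 in gp91phox-/- and -0.27 in p47phox-/-, a difference of 1.12 (adjusted p = 0.00207), again with 3 of 3 gp91phox-/- libraries above. Without p47phox-/- replicates 2 and 3 these differences were 1.81 (adjusted p = 0.0372) and 0.98 (adjusted p = 0.0709). The WT libraries are common to both effects and cancel in the difference.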

How the results depend on the processing

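Ptgs2 was called higher in gp91phox-/- in all 22 alternatives of both comparisons, with log2 fold changes of 1.94 to 2.56 against WT and 1.81 to 2.54 against p47phox-/-. Ptger4 against WT was lost without the trend (adjusted p = 0.0612), as was Pla2g4a (0.0536). With all genes, p47phox-/- against WT gave 162 calls, and 101 with only the groups compared, 52 without the trend, 678 with DESeq2, 16 without p47phox-/- replicates 2 and 3, and 47 to 235 with 1 library left out. gp91phox-/- against WT gave 1016, and 596 without the trend, 2319 with array weights, 1771 with DESeq2 and 520 to 1543 with 1 library left out. gp91phox-/- against p47phox-/- gave 1430, and 898 without the trend, 2276 with DESeq2, 441 without p47phox-/- replicates 2 and 3, and 761 to 1661 with 1 library left out. TMM scaling changed its split from 572 higher and 858 lower to 875 higher and 705 lower.

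Of the 10 members, 0 were called in p47phox-/- against WT, 1 with quantile normalization, 1 with DESeq2 and 0 to 1 with 1 library left out. In gp91phox-/- against WT 3 were called, 1 without the trend and 2 to 3 with 1 library left out. In gp91phox-/- against p47phox-/- 2 were called, 4 with DESeq2 (Ptges and Ptger4 in addition), 1 without p47phox-/- replicates 2 and 3, and 2 to 3 with 1 library left out. Changes of sign occurred only in values that were not called. In p47phox-/- against WT, Ptgs2 was -0.029 with TMM, -0.10 without WT replicate 1 and -0.19 without p47phox-/- replicate 1 (-0.19 to 0.19 with 1 library left out). In gp91phox-/- against WT, Ptges was -0.031 without gp91phox-/- replicate 3 (-0.031 to 1.75 with 1 library left out). In gp91phox-/- against p47phox-/-, Tbxas1 was 0.060 with TMM, 0.054 with array weights, 0.030 with edgeR, 0.019 with DESeq2, -0.15 to 0.088 with 1 library left out and 0.11 without p47phox-/- replicates 2 and 3. Ltc4s was -0.28 to 0.017 with 1 library left out, and 0.16 without p47phox-/- replicates 2 and 3, which also turned Alox5ap to 0.047. The cause of these changes was not tested.

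Same-numbered libraries did not deviate together (correlations of -0.04 to 0.08), so the numbers were not taken as pairs. With the replicate block 127, 877 and 1238 genes were called in the 3 comparisons, and 0, 3 and 2 members, with no member's call changed. With 3 libraries a group, intervals of single genes are wide, widest for Ptges. Where a library was left out of a group of 3, or p47phox-/- replicates 2 and 3 were, the remaining ones are assumed to vary like the other groups.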

Other observations

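Over the 9 libraries, the genes whose profiles were nearest to Ptges had their highest value in the same library, gp91phox-/- replicate 3. Ptges itself had 821 normalized counts there, far above its other values. Ranking genes by likeness to that profile favours genes that peak in that library, so the shared peak is not a separate result. The genes named next were picked with their values known. F10, which encodes coagulation factor X, had 670.2 to 1109 normalized counts in WT, 572 to 595 in p47phox-/- and 350.3, 898 and 2622 in gp91phox-/- replicates 1, 2 and 3. Brca1, a DNA repair gene, had 133 to 167 in WT, 81.9 to 138 in p47phox-/- and 108, 133 and 409 in gp91phox-/-. Tubb5, a beta-tubulin gene, had 7565 to 9232 in WT, 7567 to 8126 in p47phox-/- and 7621, 9674 and 11899 in gp91phox-/-.

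Ltc4s had Cyp27a1 (Pearson r of 0.98), which encodes sterol 27-hydroxylase, as its nearest gene in profile, and Ptgs1 had Tlr12 (0.97). Both kept a correlation of 0.97 within genotypes. Tlr12 had 6888, 3406 and 7718 normalized counts in WT, 3542, 5116 and 3958 in p47phox-/-, and 8092, 8599 and 5534 in gp91phox-/-.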
